A study of Mus musculus with 6 samples.

Results

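The genes described are Ccl5 and 7 genes of cytotoxic lymphocytes, Nkg7, Gzma, Gzmb, Prf1, Klrd1, Klrk1 and Ncr1. They were chosen by symbol from the deposited count table, and all 8 were found among its 26890 genes. All 8 also passed the filter on low counts that left 13473 genes for testing. The libraries came from digested lungs of wild-type C57BL/6 mice. One group of 3 had received saline and the other group of 3 had received C1q, which recognises bound antibody and starts the classical complement cascade, through the trachea at 20 µg per mouse, and both were collected at day 3. Poly(A) RNA of the cells in the middle layer of a Percoll gradient was read from the 5′ ends of transcripts. The cells were a mixture and no lymphocyte was sorted. Counts therefore reflect both how many cells carried a transcript and how much each cell held, and fewer cells cannot be told apart from less RNA per cell.

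Natural killer cells and cytotoxic T cells kill target cells by releasing granules. Perforin opens the target membrane, and granzymes that enter through it cleave proteins of the target cell. Receptors of the lectin-like Klr family and Ncr1 decide whether the killer cell fires, and Ccl5, a chemokine that the same cells make, draws monocytes, T cells and eosinophils through CC chemokine receptors that include Ccr1 and Ccr3. In the lung, natural killer cells are a sizeable part of the lymphocytes, and many of them sit in the blood vessels.

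Total counts ranged from 2227619 to 3650793 per library. A count of 3 then corresponds to 0.830 to 1.35 CPM, the unit of counts scaled to a common library size, with library sizes adjusted by the trimmed mean of M-values (TMM). Markers of the labelled tissue were present in every library, with Sftpc, the surfactant gene of alveolar type 2 cells, at 15953 to 32862 CPM. In C1q replicate 2, 19 tested genes stood at more than 4 times the level of any other library, against 0 to 3 genes in each of the other libraries. Saline replicate 3 had the most genes with a count, 23259. The labels do not say that each sample was a separate animal, so the tests measure the spread between these samples, which may be technical.

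The promoters of the granule genes are shown because the same 6 letters, TGTGGT, occur in each of them. TGTGGT is a core form of the site bound by RUNX factors, among them Runx3, a regulator of cytotoxic lymphocytes, and on the other strand it reads ACCACA. RefSeq promoters on GRCm38.p6 were matched by symbol for 6 of the 8 genes, Nkg7, Gzma, Gzmb, Prf1, Klrk1 and Ncr1. The sequences run 5′ to 3′ on the strand of the gene and end at the base before its start. Nkg7 and Prf1 were shortened to end before the earlier start in GENCODE M21. Capitals mark each letter run searched for that lies within the printed sequence. These are TGTGGT or ACCACA in all 4 genes and also AGGAAG or CTTCCT, a form of the ETS factor site, in Prf1. The windows are chr7:43436888-43437072 for Nkg7 and chr10:61297586-61297832 for Prf1, both on the plus strand, and chr13:113100982-113101231 for Gzma and chr14:56262335-56262584 for Gzmb, both on the minus strand.
Nkg7: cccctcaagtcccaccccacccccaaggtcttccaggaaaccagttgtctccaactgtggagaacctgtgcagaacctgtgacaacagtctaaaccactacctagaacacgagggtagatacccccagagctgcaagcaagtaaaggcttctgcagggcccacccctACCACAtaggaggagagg
Gzma: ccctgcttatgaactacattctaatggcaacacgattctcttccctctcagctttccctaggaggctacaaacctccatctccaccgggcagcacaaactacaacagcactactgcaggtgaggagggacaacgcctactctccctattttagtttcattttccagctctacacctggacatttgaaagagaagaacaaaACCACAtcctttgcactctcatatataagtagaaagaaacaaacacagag
Gzmb: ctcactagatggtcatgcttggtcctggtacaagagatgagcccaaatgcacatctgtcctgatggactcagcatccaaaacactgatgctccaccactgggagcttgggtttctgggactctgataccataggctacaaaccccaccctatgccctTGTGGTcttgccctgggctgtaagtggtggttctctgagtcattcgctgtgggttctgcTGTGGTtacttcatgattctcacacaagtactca
Prf1: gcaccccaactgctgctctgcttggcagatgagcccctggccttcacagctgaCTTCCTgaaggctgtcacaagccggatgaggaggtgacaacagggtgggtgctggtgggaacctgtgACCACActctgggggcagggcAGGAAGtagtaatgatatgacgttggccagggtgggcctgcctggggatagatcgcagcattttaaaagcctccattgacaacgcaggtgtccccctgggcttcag

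In the 250 bases before the RefSeq start, TGTGGT or its reverse complement was present in 6 of these 6 genes, and in 14.0% of the 32851 promoter windows of the table. Counted from the RefSeq start, it stood 50 bases before the start of Gzma and 34 and 93 bases before that of Gzmb. It stood 130 bases before that of Prf1, 83 bases before that of Nkg7 and 129 bases before that of Klrk1. Ncr1, with 2 windows whose starts lie close together, held it at 2 places in each. The other letter runs were searched on both strands in the same way. AGGAAG was found in Nkg7 and Prf1 and in 29.5% of all windows. GGTGTG, a core form of the T-box factor site, was found in Nkg7 alone, 13 bases before its RefSeq start, and in 16.3% of all windows. This match and AGGAAG of Nkg7, at 34 bases, lie in the 65 bases left off its printed sequence, past the GENCODE start. Neither CGGAAG, another ETS form (13.6% of windows), nor the TATA box letters TATAAA (12.4%) occurred in the 6 genes. None of the matches overlapped another. These matches are letters in a window, with no test and no measurement of binding.

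None of the 8 genes differed between C1q and saline libraries by edgeR's quasi-likelihood test at an adjusted p of 0.05. Over all tested genes 4 passed, which is 0.0297%. The mean was lower after C1q for 5 of the 8 genes, where it was lower for 51.8% of all genes. At an unadjusted p under 0.05 there was 1 lower member, Ccl5, and 0 higher, where 3.94% of all genes were lower at that p. Of all 13473 genes, 531 were lower and 568 higher at that p. DESeq2 and limma-voom called 0 of the 8 as well. The median log2 fold change of the 8 genes was -0.19, against -0.01 for all genes tested. For 0 of the 8 did the C1q libraries all lie below the saline range or all above it, which happened for 5.96% and 8.12% of all genes.

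**Figure D1:**
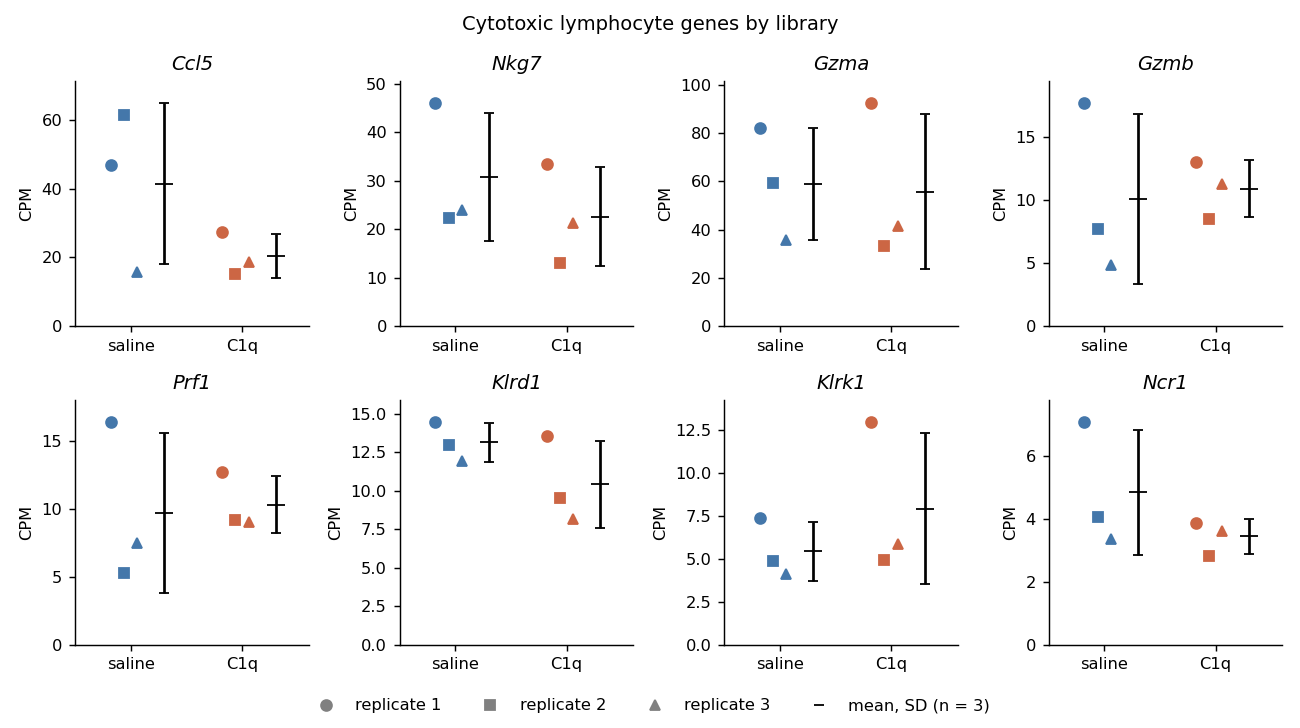
CPM (vertical axis, from 0, a separate scale for each gene) of the 8 genes in each saline (blue) and C1q (orange) library, with the mean and SD of 3 libraries in black. Saline and C1q libraries overlap for all 8 genes, and replicate 1 of each group is often the highest.

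Ccl5 had the largest difference of the 8 genes between group means, with 2 of the 3 saline libraries above every C1q library and 1 among them. On GRCm38 it lies on the minus strand of chromosome 11 from 83525778 to 83530518, and it is annotated as protein-coding. Saline replicates 1 to 3 held 146, 152 and 42 counts, or 46.9, 61.5 and 15.7 CPM. C1q replicates 1 to 3 held 99, 43 and 41 counts, or 27.4, 15.2 and 18.5 CPM. Saline replicate 3 stood between the C1q libraries, and saline replicate 2 was the highest of the 6. The group means were 41.4 ± 23.4 CPM in saline and 20.4 ± 6.31 CPM in C1q (SD, n = 3 each).

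The log2 fold change of Ccl5 was -1.0 ± 0.41 (SE), with a 95% interval of -1.90 to -0.10 before any adjustment and an adjusted p of 0.602. Without saline replicate 2 it was -0.61 (adjusted p = 0.553), and without saline replicate 3 it was -1.38 (adjusted p = 0.0541). The same test on all 26890 genes with no filter on low counts gave -0.98 ± 0.22 and an adjusted p of 0.00162, the 1 alternative of 14 in which Ccl5 passed. That fit called 373 genes in all.

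**Figure D2:**
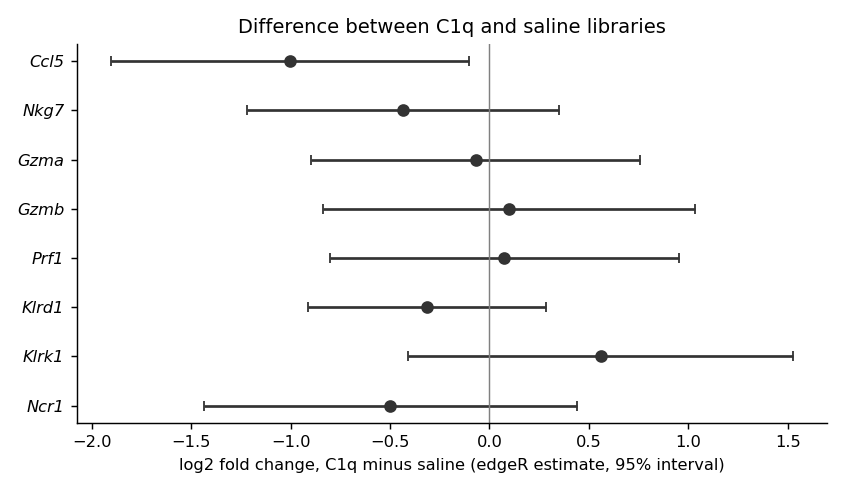
Log2 fold change (horizontal axis, C1q minus saline, edgeR estimate) of each gene with its unadjusted 95% interval. Only the interval of Ccl5, from -1.90 to -0.10, leaves out 0, and none of the 8 genes passed after adjustment over all genes.

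Ccr1, to which Ccl5 and other CC chemokines bind, had a higher mean after C1q without passing the test. Ccr1, a receptor of monocytes and neutrophils for several CC chemokines, stood at 31.2, 27.9 and 23.5 CPM in saline and 43.4, 38.8 and 46.5 CPM in C1q. Its log2 fold change was 0.63 ± 0.17 (adjusted p = 0.429). Every C1q library was higher than every saline library, as for 8.12% of all tested genes. Ccr3, the eosinophil receptor, had 1 to 8 counts per library and was not tested.

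Other chemokines of the list spread to either side of no difference. Ccl3 and Ccl4, which cytotoxic cells and macrophages make, had log2 fold changes of -0.06 ± 0.20 and 0.14 ± 0.21. Ccl9, a chemokine of myeloid cells, averaged 49.8 ± 12.9 CPM in saline libraries and 93.4 ± 18.0 CPM in C1q libraries. Its log2 fold change was 0.91 ± 0.22 (adjusted p = 0.359). With no filter on low counts, the 1 alternative of 14 in which Ccl9 passed, its adjusted p was 0.000354. Of the 6 tested genes of this list edgeR called 0, with 2 higher, Ccr1 and Ccl9, and 1 lower, Ackr4, at an unadjusted p under 0.05. At that p 568 of all 13473 tested genes were higher and 531 lower. Ackr4, a scavenging receptor for other chemokines that was named after its values were seen, stood at 9.32, 6.88 and 7.84 CPM in saline and 2.21, 4.59 and 5.42 CPM in C1q. Its log2 fold change was -1.02 ± 0.40 (adjusted p = 0.602), the furthest from 0 of the 6. Its C1q libraries all lay below the saline range, as for 5.96% of all tested genes.

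The granule genes had nearly the same group means in both treatments for 3 of 4 members, with wide intervals. Gzma encodes granzyme A, a trypsin-like serine protease, and lies on the minus strand of chromosome 13 from 113093825 to 113100981. It held 255, 147 and 95 counts in saline replicates 1 to 3, or 82.0, 59.5 and 35.5 CPM, and 334, 94 and 92 counts in C1q replicates 1 to 3, or 92.4, 33.2 and 41.5 CPM. The highest and the lowest library were both C1q libraries, and they differed by 2.79-fold. The means were 59.0 ± 23.3 and 55.7 ± 32.0 CPM, and the log2 fold change was -0.07 ± 0.38 (95% interval -0.90 to 0.76, adjusted p = 0.971).

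Gzmb encodes granzyme B, which cuts after aspartate and activates caspases. It lies on the minus strand of chromosome 14 from 56258838 to 56262260. Its counts were 55, 19 and 13 in saline and 47, 24 and 25 in C1q, or 17.7, 7.69 and 4.86 CPM against 13.0, 8.47 and 11.3 CPM. The saline libraries spanned 3.64-fold, and all 3 C1q libraries fell inside that span. Its log2 fold change was 0.10 ± 0.42 (95% interval -0.84 to 1.03, adjusted p = 0.963).

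Prf1 encodes perforin, the pore-forming protein, and lies on the plus strand of chromosome 10 from 61297833 to 61304680. Its counts were 51, 13 and 20 in saline and 46, 26 and 20 in C1q, or 16.4, 5.26 and 7.47 CPM against 12.7, 9.17 and 9.03 CPM. Here too the C1q libraries lay within the saline range, which spanned 3.12-fold. For Prf1 the log2 fold change was 0.08 ± 0.40 (95% interval -0.80 to 0.95, adjusted p = 0.971). The intervals of Gzma, Gzmb and Prf1 leave room for a change of more than 1.5-fold in either direction, so these data do not show that the genes were unaffected.

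Nkg7, a membrane protein of cytotoxic granules that is needed for their release, lies on the plus strand of chromosome 7 from 43437073 to 43438249. It held 143, 55 and 64 counts in saline, or 46.0, 22.3 and 23.9 CPM, and 121, 37 and 47 counts in C1q, or 33.5, 13.1 and 21.2 CPM. In each group 1 library, replicate 1, stood well above the other libraries. The means were 30.7 ± 13.2 and 22.6 ± 10.3 CPM, and the log2 fold change was -0.44 ± 0.36 (95% interval -1.22 to 0.35, adjusted p = 0.738). It was -0.02 without saline replicate 1 and -0.87 without C1q replicate 1.

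Of the 8 genes, Klrd1 varied least between libraries, by 1.78-fold. It encodes CD94, the partner that pairs with Klrc chains to bind the non-classical MHC molecule Qa-1, and lies on the plus strand of chromosome 6 from 129591782 to 129598775. Its counts were 45, 32 and 32 in saline and 49, 27 and 18 in C1q, or 14.5, 13.0 and 12.0 CPM against 13.6, 9.52 and 8.13 CPM. The saline libraries differed by no more than 1.21-fold, and C1q replicate 1 stood inside their range while the other C1q libraries stood below it. The log2 fold change was -0.31 ± 0.27 (95% interval -0.91 to 0.28, adjusted p = 0.749). It was -0.17 without C1q replicate 3 and -0.57 without C1q replicate 1.

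Klrk1 encodes NKG2D, an activating receptor for stress-induced ligands, and had the highest log2 fold change of the 8 genes. It lies 11547 bases from Klrd1 in the natural killer gene complex, on the minus strand of chromosome 6 from 129610323 to 129623864. Its counts were 23, 12 and 11 in saline and 47, 14 and 13 in C1q, or 7.39, 4.86 and 4.11 CPM against 13.0, 4.94 and 5.87 CPM. C1q replicate 1 alone stood above the saline range, and the other C1q libraries lay within it. The log2 fold change of 0.56 ± 0.44 (95% interval -0.41 to 1.53, adjusted p = 0.728) became -0.03 without C1q replicate 1.

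Ncr1 encodes NKp46, an activating receptor largely restricted to natural killer cells and related innate lymphoid cells. It lies on the plus strand of chromosome 7 from 4337724 to 4345164. Its counts were 22, 10 and 9 in saline and 14, 8 and 8 in C1q, or 7.07, 4.05 and 3.36 CPM against 3.87, 2.82 and 3.61 CPM. Saline replicate 1 was the highest library, and the remaining 5 lay between 2.82 and 4.05 CPM. Between the groups the log2 fold change was -0.50 ± 0.43 (95% interval -1.44 to 0.44, adjusted p = 0.749). It was -0.10 without saline replicate 1. For 8 counts the exact Poisson interval runs from 3.45 to 15.8, so the low libraries of Ncr1 cannot be ordered at this depth.

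The difference between group means was smaller than the spread within a group when the 8 genes were summed, with sums of 174 ± 65.6 CPM over the saline libraries and 142 ± 59.8 CPM over the C1q libraries (SD, n = 3 each). On the log2 CPM scale (prior count 2), the mean deviation of the 8 genes from their averages over 6 libraries was 0.64 in saline replicate 1 and 0.40 in C1q replicate 1. It was 0.00 in saline replicate 2, -0.41 in saline replicate 3, -0.44 in C1q replicate 2 and -0.20 in C1q replicate 3. Summed over the 8 genes, the level was 238, 178 and 107 CPM in saline and 209, 96.3 and 119 CPM in C1q. Without Ccl5 the sums were 191, 117 and 91.1 CPM in saline and 182, 81.1 and 101 CPM in C1q, with means of 133 ± 51.9 and 121 ± 53.5 CPM (SD, n = 3 each). The replicate numbers follow the order of deposition and tie no saline library to a C1q library.

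**Figure D3:**
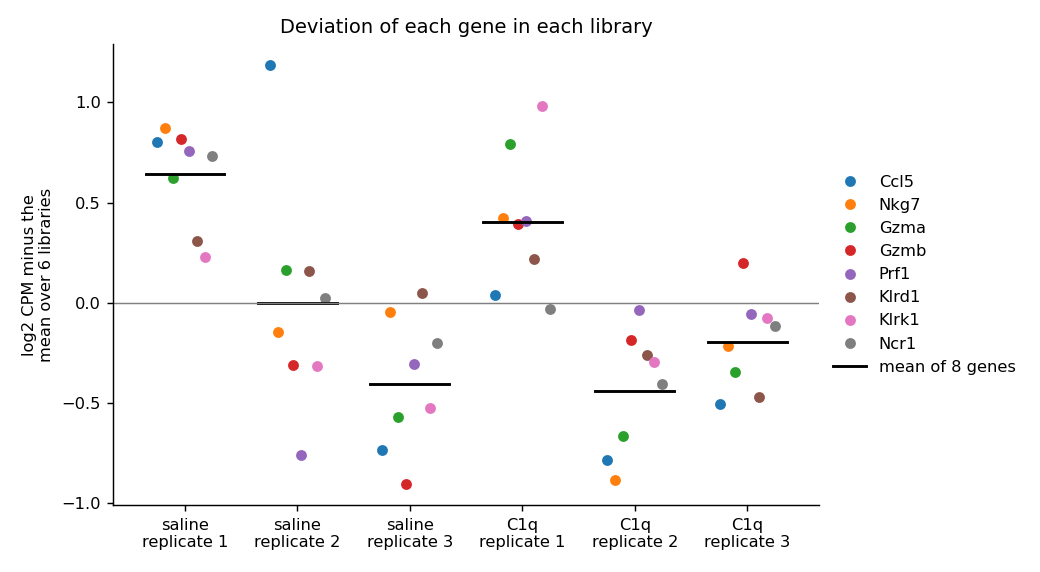
Log2 CPM of each gene minus its mean over the 6 libraries (vertical axis), by library (horizontal axis), with the mean of the 8 genes as a black bar. The bars of saline replicate 1 (0.64) and C1q replicate 1 (0.40) are the highest, and Ccl5 in saline replicate 2 stands apart from the other genes of that library.

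Markers of red cells, B cells and T cells were also highest in replicate 1 of each group, and those of platelets were not in the C1q group. The 5 haemoglobin and haem synthesis genes of red cells summed to 273, 117 and 140 CPM in saline and 191, 83.2 and 37.9 CPM in C1q. The 10 B cell genes summed to 385, 291 and 270 CPM in saline and 389, 236 and 257 CPM in C1q. The 17 T cell genes in the table summed to 238, 212 and 189 CPM in saline and 228, 187 and 186 CPM in C1q. Of these lists, 4, 10 and 14 genes were tested and edgeR called 0, with median log2 fold changes of -0.71, -0.15 and -0.18. At an unadjusted p under 0.05 there were 0, 0 and 1 (Cd3e, lower), beside 568 higher and 531 lower of all 13473 tested genes. The 8 platelet genes, from cells that also carry Ccl5, summed to 54.7, 49.0 and 47.8 CPM in saline and 44.5, 43.7 and 53.3 CPM in C1q. The part of these cells in the levels of the 8 genes was not tested. A high replicate 1 was not particular to these cell types. Sums of the chemokine list, of other granule genes and of receptor ligands were also highest in replicate 1 of each group. The ligand genes, which include MHC class I genes, summed to 5705, 4720 and 3782 CPM in saline. In C1q they summed to 4635, 4475 and 4251 CPM.

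The share of Ccl5 in the summed counts of the 8 genes was highest in saline replicate 2. There Ccl5 made up 34.5% (exact Clopper-Pearson 95% interval 30.1% to 39.2%). In the remaining libraries it made up 13.1% to 19.7%, the highest being saline replicate 1 (16.9% to 22.8%). A high share of 1 gene lowers the shares of the others by construction, so levels are given as well. On the log2 CPM scale Ccl5 stood 1.19 above its mean over the 6 libraries in saline replicate 2. The other 7 genes deviated by -0.76 (Prf1) to 0.17 (Gzma) in that library. Klrk1 made up 3.11%, 2.73% and 3.85% in saline and 6.21%, 5.13% and 4.92% in C1q. It was the 1 gene of 8 whose shares did not overlap between groups, and it was singled out after its values were seen. On the CPM scale, 5.96% of all tested genes did not overlap with C1q lower and 8.12% with C1q higher, so 1 of 8 is near the background and is not a result about Klrk1. A share also moves with the counts of the other 7 genes, and the CPM of Klrk1 did overlap between groups. The intervals of neighbouring libraries overlap, as with 2.65% to 8.27% in C1q replicate 3 and 1.94% to 6.78% in saline replicate 3. These intervals cover counting error only.

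**Figure D4:**
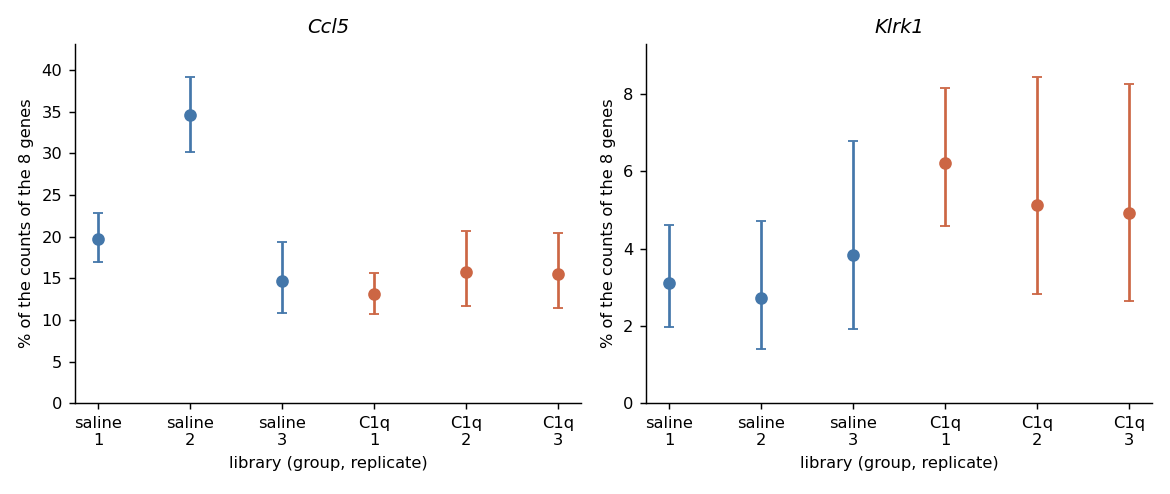
Share (vertical axis, from 0) of the summed counts of the 8 genes that belonged to Ccl5 (left) and Klrk1 (right) in each library, with exact 95% intervals. Ccl5 reached 34.5% in saline replicate 2 and at most 19.7% in the other libraries, and the Klrk1 shares were 2.73% to 3.85% in saline and 4.92% to 6.21% in C1q.

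The Ccl5 transcript is short, at 532 bases in GENCODE M21, and saline replicate 2 was also the highest library among the shortest of 10 bins of transcript length. Among the 1275 tested genes with a median transcript length of 102 to 742 bases, the median deviation on the log2 CPM scale was 0.19 in saline replicate 2 and -0.20 in saline replicate 3. It lay between -0.10 and 0.04 in the other libraries. In the next bins, of 743 to 1018 and 1018 to 1392 bases, C1q replicate 1 was highest, at 0.12 and 0.14. Among the longest transcripts the order of saline replicates 2 and 3 turned round, at -0.12 and 0.21. C1q replicate 1 was also at -0.12 there. When every library was scaled within 10 bins of transcript length, an alternative chosen after seeing the data, Ccl5 stood at 46.4, 54.7 and 18.8 CPM in saline and 28.0, 16.3 and 20.6 CPM in C1q. The log2 fold change was then -0.91 ± 0.34 (adjusted p = 0.486), and saline replicate 2 remained the highest library. The other 7 genes have median transcript lengths of 783 to 2221 bases.

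**Figure D5:**
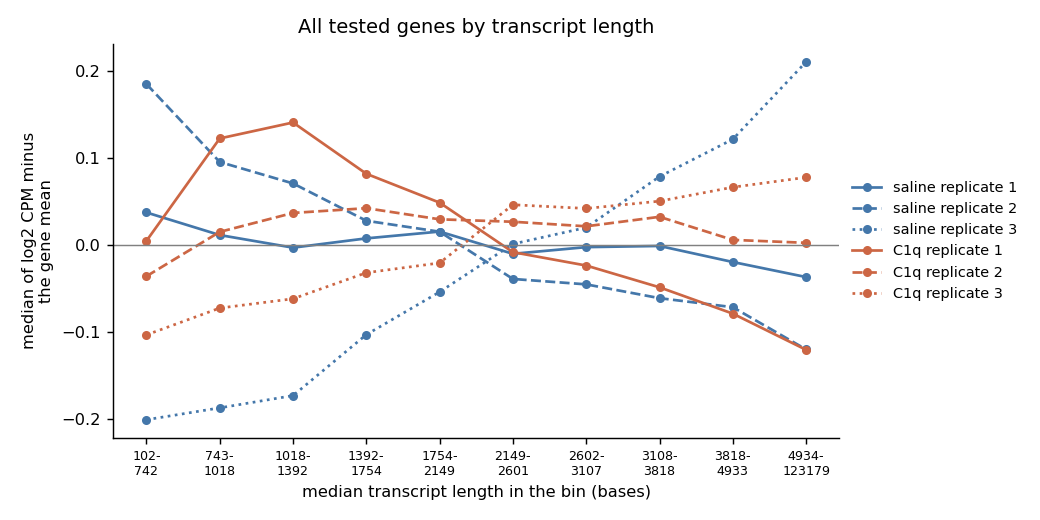
Median deviation of log2 CPM from the gene mean (vertical axis) for tested genes in 10 bins of median transcript length (horizontal axis, bases), 1 line per library. In the shortest bin, which holds Ccl5, saline replicate 2 is highest at 0.19 and saline replicate 3 lowest at -0.20.

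Other genes of granules and killing were tested for 10 of 16 listed, and edgeR called 0 in either direction. At an unadjusted p under 0.05, 2 were higher and 1 lower, beside 568 higher and 531 lower of all 13473 tested genes. Their median log2 fold change was 0.21, with 8 higher and 2 lower means. Ctsw, a cathepsin of cytotoxic cells, stood at 11.3, 10.1 and 3.74 CPM in saline and 9.40, 3.88 and 4.97 CPM in C1q (log2 fold change -0.43 ± 0.47). It was -0.14 without saline replicate 1 and -0.93 without C1q replicate 1. Ctsc, the cathepsin that activates granzymes and also the serine proteases of myeloid cells, stood at 363, 403 and 306 CPM in saline and 499, 507 and 579 CPM in C1q. Its log2 fold change was 0.56 ± 0.16 (adjusted p = 0.469), and its C1q libraries lay above the saline range, as for 8.12% of all tested genes. Stx11, a protein of granule fusion, was at 0.48 ± 0.20 (adjusted p = 0.602). Tnfsf10, the death ligand TRAIL, averaged 150 ± 34.5 CPM in saline libraries and 106 ± 20.1 CPM in C1q libraries (log2 fold change -0.50 ± 0.20, adjusted p = 0.602), and it was -0.32 without saline replicate 1. Gzmk, Gzmc and Gzmm, further granzymes, had at most 6 counts in any library and were not tested.

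Other receptors and adaptors of natural killer cells were tested for 13 of 28 listed, and edgeR called 0. At an unadjusted p under 0.05, 1 was higher and 0 lower, beside 568 and 531 of all 13473 tested genes. The median log2 fold change was -0.07, with 5 higher and 8 lower means. Klri2, a lectin-like receptor chain that pairs with Klre1, had the lowest value, at 8.36, 7.29 and 5.23 CPM in saline and 5.25, 1.06 and 3.61 CPM in C1q (log2 fold change -1.04 ± 0.49, adjusted p = 0.606). It was -0.62 without C1q replicate 2 and -1.62 without C1q replicate 1. Klre1 was at -0.19 ± 0.57. Klrb1c, Klrc1, Cd244a, Slamf7 and Itga2 were at -0.16, -0.14, -0.14, -0.07 and -0.04. Klra4 was at 0.00, and Cd7, Klrb1b and Cd226 were at 0.16, 0.26 and 0.59. Fcgr3, an Fc receptor shared by natural killer and myeloid cells, was at 0.66 ± 0.26 (adjusted p = 0.602), and at 0.39 without C1q replicate 1 (adjusted p = 0.854). With no filter on low counts, the 1 alternative of 14 in which Fcgr3 passed, its adjusted p was 0.0321. Tyrobp, the signalling adaptor DAP12 of the same cells, stood at 185, 319 and 102 CPM in saline and 168, 145 and 134 CPM in C1q, and saline replicate 2 was its highest library as for Ccl5. Its log2 fold change was -0.44 ± 0.32 (adjusted p = 0.710). Macrophage and monocyte genes summed to 8077, 10380 and 5778 CPM in saline and 9729, 9693 and 8772 CPM in C1q, and the part of these cells in Fcgr3 and Tyrobp was not tested.

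Transcription factors of cytotoxic lymphocytes were tested for 12 of 14 listed, with 0 called by edgeR and a median log2 fold change of -0.11. At an unadjusted p under 0.05, 1 was higher and 1 lower, beside 568 and 531 of all 13473 tested genes. Nfil3, needed for natural killer cell development but expressed in many cells, stood at 42.4, 41.3 and 32.5 CPM in saline and 50.6, 56.1 and 60.5 CPM in C1q (0.52 ± 0.17, adjusted p = 0.530). Runx3 averaged 11.3 ± 2.21 CPM in saline libraries and 14.5 ± 3.47 CPM in C1q libraries (0.36 ± 0.28, adjusted p = 0.717), and the difference was 0.21 without C1q replicate 1. Eomes, a T-box factor of natural killer cells, stood at 6.75, 2.43 and 4.11 CPM in saline and 2.77, 2.82 and 4.06 CPM in C1q (-0.51 ± 0.47, adjusted p = 0.762), and its log2 fold change was -0.05 without saline replicate 1. Hopx, which alveolar type 1 cells also express, stood at 118, 198 and 95.2 CPM in saline and 63.6, 101 and 80.4 CPM in C1q. Its log2 fold change was -0.75 ± 0.27 (adjusted p = 0.563), and it was -0.39 without saline replicate 2 (adjusted p = 0.489). With no filter on low counts, the 1 alternative of 14 in which Hopx passed, its adjusted p was 0.0154.

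Cytokine signals that sustain these cells and the tested ligands of their receptors gave no calls either. Of 9 listed ligand genes 4 were tested, all of MHC class I. The listed stress-induced ligands of Klrk1, which were Raet1d, Raet1e, Ulbp1, H60b and H60c, had too few counts for the edgeR test. For them the absence of calls is no result. Of 14 tested genes of the IL-2, IL-12, IL-15 and IL-18 axis edgeR called 0, with 0 at an unadjusted p under 0.05 and a median log2 fold change of 0.07. Il2rg, the shared receptor chain, was at 0.08 ± 0.17, and Il18r1, the IL-18 receptor, at 0.06 ± 0.15. H2-T23, which encodes the Qa-1 ligand of Klrd1, was at -0.20 ± 0.22. It stood at 257, 159 and 134 CPM in saline and 156, 171 and 151 CPM in C1q. B2m, the light chain of MHC class I, was at -0.22 ± 0.21. The remaining tested ligand genes, H2-K1 and H2-D1, were at -0.04 ± 0.17 and 0.02 ± 0.17.

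Basophils, mast cells and plasmacytoid dendritic cells, which can carry Gzmb, and group 2 innate lymphoid cells were looked for by their markers. Basophil and mast cell genes summed to 7.29 to 9.32 CPM in saline and 2.71 to 9.17 CPM in C1q, and of 9 genes 1, Cma1, had enough counts to be tested. The defining basophil protease gene Mcpt8 had 0 or 1 count in each library. Siglech, which marks plasmacytoid dendritic cells, stood at 4.86 to 5.47 CPM in saline and 4.98 to 8.47 CPM in C1q. The plasmacytoid list of 8 genes had 5 tested, 0 called by edgeR and 0 at an unadjusted p under 0.05, with a median log2 fold change of -0.25. The group 2 innate lymphoid cell list had 7 tested genes and 0 called by edgeR, with a median of 0.13. At an unadjusted p under 0.05, 2 were higher, Il5 and Arg1, beside 568 of all 13473 tested genes. The part of these cells in the granzyme levels was not tested. Over all 15 lists beside the 8 genes, edgeR and limma-voom called 0 of 123 tested genes and DESeq2 called 2, Il5 and the collagen gene Col1a2, both higher.

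The pattern of the 8 genes over the 6 libraries was compared with that of 13441 other tested genes at a mean of at least 3 CPM. The genes most alike by Pearson's r to the mean deviation of the 8 were Sdhaf1 (0.99), Nsun3 (0.99), H2-T10 (0.99), Tgs1 (0.98) and Sp110 (0.98). Among the 8 genes themselves r ran from 0.68 for Prf1 to 0.96 for Gzma. Each of the 8 is part of the mean it was compared with, which raises its r. The 5 genes had a narrower range of levels than Gzma, as with Sdhaf1 at 23.9 to 39.9 CPM. With 6 libraries and 13441 candidates, values of r this high describe the ranking only.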

How the data were processed

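Poly(A) RNA of digested lung cells from 3 saline and 3 C1q samples was read at transcript 5′ ends. The authors deposited raw counts, 1 whole number for each gene symbol in each sample. GRCm38, Bowtie2 2.4.2 and cutadapt 2.1.0 are listed in the submitters' processing notes. The counting method, its annotation, its strand setting and any molecular identifiers were not given in the sources used here. Groups follow the treatment label, and replicates are numbered in order of deposition. Genes were filtered with filterByExpr (minimum count 10), TMM-scaled and compared by edgeR 4.0.16 (quasi-likelihood, two-sided, treatment only), with Benjamini-Hochberg adjustment over 13473 genes. Levels are CPM of TMM-scaled library sizes. DESeq2 1.42.0 and limma 3.58.1 (voom) were alternatives. The members and 15 other lists were chosen with earlier results of these data known. Named genes were the 8 members, the 5 genes most alike in pattern, and a selection of other genes. The selection was open to granule, receptor and transcription factor genes with a mean of at least 3 CPM. It was also open to up to 4 of the most abundant genes of each other list. Not every gene open to it was named. It holds each granule, receptor and transcription factor gene with an unadjusted p under 0.05, so the named genes lean towards larger differences. Mcpt8, Cma1, Ccr3, Ackr4, Siglech, Cd3e, Il5, Arg1, Col1a2 and the genes with too few counts were named outside this rule, after their values were seen. Transcript lengths, known for 12750 tested genes, and gene positions are from GENCODE M21 on GRCm38. Counts compare libraries within a gene, not levels between genes. A further gene was left out of the chemokine list and is not reported here.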

Additional observations from a re-analysis of the deposited data

How the results depend on the processing

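Of 112 refits of the 8 genes under 14 alternatives, 101 kept their direction and their side of the threshold, 10 turned direction and 1, Ccl5 with no filter on low counts, passed. The number of members called was 0 in every alternative except that one, where it was 1. The number of genes called over the whole table was 4, and it was 373 with no filter on low counts (158 higher and 215 lower), 37 with DESeq2 and 0 to 10 with 1 library left out. The causes were not tested. With 1 library left out, Gzma ran from -0.67 to 0.25 on the log2 scale, Gzmb from -0.24 to 0.81, Prf1 from -0.20 to 0.70 and Klrk1 from -0.0302 to 0.85. Tyrobp ran from -0.76 to 0.0566, Klre1 from -1.19 to 0.23 and Ccl3 from -0.23 to 0.0570. The turned signs of Gzma came when saline replicate 1 (0.25) or, in the C1q group, replicate 2 (0.20) or 3 (0.10) was left out. Those of Gzmb (-0.06, -0.24 and -0.06) and Prf1 (-0.20, -0.09 and -0.11) came when saline replicate 2, saline replicate 3 or, in the other group, replicate 1 was left out. That of Tyrobp came without saline replicate 2. Those of Klre1 came without saline replicate 1 (0.13) or C1q replicate 2 (0.23), and those of Ccl3 without saline replicate 1 (0.01), saline replicate 2 (0.0570) or C1q replicate 1 (0.01). Il2rg, with a range of -0.00889 to 0.25, turned without saline replicate 2, and Il18r1 (-0.00223 to 0.16) and H2-T23 (-0.39 to 0.12) turned without saline replicate 1. Without sign changes, Ccl4 ran from 0.02 to 0.31 and B2m from -0.42 to -0.08 with 1 library left out. No paired analysis was possible because the replicate numbers follow the order of deposition and tie no samples together. Depth limits Ncr1 and Klrk1 most, with 8 to 22 and 11 to 47 counts per library.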
